A study of Arabidopsis thaliana with 8 samples.

Results

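The early flavonoid pathway was followed through 6 genes in seedlings of Arabidopsis thaliana, out of 22746 non-control probe sets measured on Affymetrix ATH1 arrays. They were listed by their place in the pathway, with earlier results of these data known, and they are CHS, CHI, CHIL, F3H, TT7 and FLS1. Of their probe sets the platform annotation names that of CHIL, and the other 5 carry the gene names given with the rule that chose them. All 6 reached the signal filter for testing, among 13822 probe sets that did, CHS only through its level in 15B. The arrays fall into 2 groups of 4, both in the Landsberg erecta (Ler) background and both descended from the same transgenic line. The first group, called the silenced parent here, is the line labelled CHS, homozygous for 1 insert that holds an extra chalcone synthase gene and shuts down the resident gene TT4 (another name of CHS) by homology-dependent silencing. The second, 15B, is an EMS (ethyl methanesulfonate) mutant derived from that line. The series title links the work to hog1 and to an easing of CHS silencing, but no label names the gene altered in 15B. Plants of both groups were whole ("total tissue"), at growth stage 1.04, grown at 22 degrees C under 18 h of light on agar with 1% sucrose, with 10 plants pooled and 4 biological replicates per the series' design text. 15B is 1 mutant line, so a mutation that eases silencing and any other EMS change in it cannot be told apart, and no line without the insert was analysed here.

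Flavonoids are plant pigments and sunscreens built from a phenylpropanoid and malonyl units. CHS makes the first flavonoid skeleton, naringenin chalcone, and CHI closes its ring to naringenin. CHIL is a relative of CHI without its catalytic activity that helps CHS make the right product. F3H adds a hydroxyl group to naringenin to give dihydroflavonols, TT7 (flavonoid 3'-hydroxylase, a cytochrome P450) decorates their B ring, and FLS1 turns dihydroflavonols into flavonols, the sunscreen branch. DFR draws on the same dihydroflavonols for the anthocyanin branch. In Arabidopsis seedlings, light and the factors MYB11, MYB12 and MYB111 switch on CHS, CHI, F3H and FLS1 together, and plants that lack CHS have colourless seed coats, hence the name TRANSPARENT TESTA 4.

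In 15B, CHS was much higher than in the silenced parent, and it was the 1 member of the 6 that passed the test. The series title links the work to an easing of CHS silencing, so a rise of CHS was to be looked for in 15B. The 5 enzymes and helpers that act with or after CHS did not pass (0 of 5). Over all tested probe sets 3.13% were called higher and 3.57% lower in 15B, and of the 6 members 1 was called higher and 0 lower. The 1 is CHS, which reached the filter for testing through its level in 15B, so the count is a description. Besides CHS, 3 of the 5 others (CHIL, TT7 and F3H) had an unadjusted p under the threshold of 0.05, as did 21.5% of all tested probe sets. As a description, the median log2 difference of the 6 was 0.37 and that of all tested probe sets -0.03. A positive value was found for 4 of the 5 others and for 44.4% of all tested probe sets.

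CHS, the silenced gene itself, is measured by probe set 250207_at (locus AT5G13930 on chromosome 5). Its signal in the silenced parent was 12.2, 4.7, 12.5 and 14.5 in replicates 1 to 4. In 15B it was 195.6, 139.9, 151.6 and 150.6. All 4 arrays of 15B thus lay far above all 4 of the silenced parent, where CHS stayed under the filter level of 30 signal units that the mean over 8 arrays had to reach. The means were 11.0 ± 4.31 and 159 ± 24.7 (SD, n = 4). The deposited values do not say whether the silenced parent's CHS signal was above background, so no ratio of these means is given. On the log2(signal + 10) scale, which damps changes of dim signals, the difference was 3.03 (SE 0.16, 95% interval 2.67 to 3.39, limma adjusted p = 7.89e-08). CHS passed the filter through its level in 15B, and the size of the difference depends on the pseudocount, at 3.83 with 1 and 2.21 with 30 in place of 10. The groups of every member are drawn array by array in the plot of signals. The array reports CHS transcript as a whole, and transcripts of the resident gene and of the extra copy cannot be told apart.

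**Figure D1:**
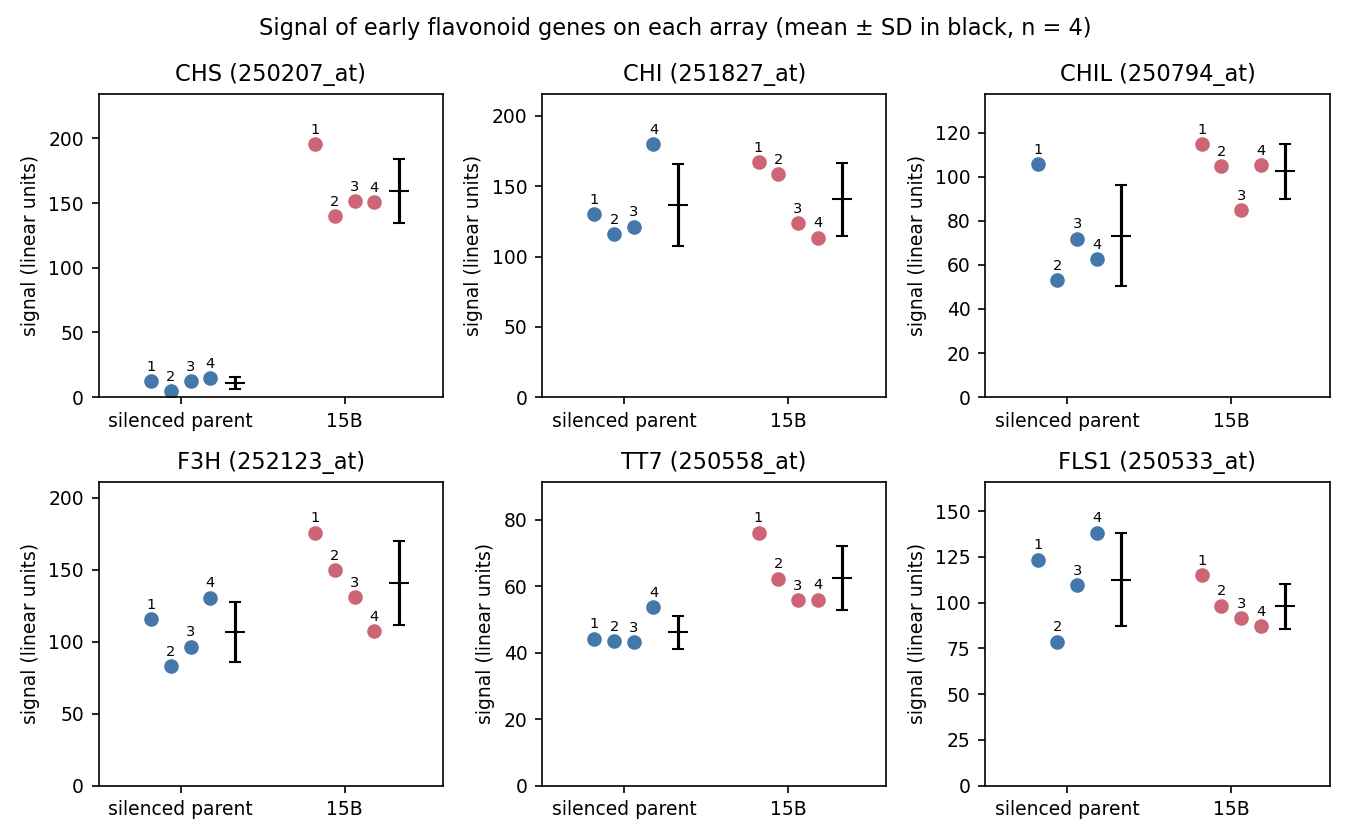
Signal of each of the 6 genes in linear units on the 4 silenced parent arrays (blue) and the 4 arrays of 15B (red), with replicate numbers, and the mean ± SD of each group in black. CHS is at 4.7 to 14.5 against 139.9 to 195.6, TT7 separates by a small gap (at most 53.6 against at least 55.8), and the groups of the other 4 genes overlap.

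CHI, which converts the product of CHS, is measured by 251827_at (AT3G55120, chromosome 3). Its signal was 130.0, 115.9, 121.1 and 179.9 in replicates 1 to 4 of the silenced parent and 166.9, 158.5, 123.6 and 113.3 in those of 15B. The 2 groups covered nearly the same span. Means were 137 ± 29.4 and 141 ± 26.1 (SD, n = 4), and the log2 difference was 0.04 with a 95% interval of -0.28 to 0.36 (limma adjusted p = 0.912). In folds on that scale the interval ran from 0.822 to 1.29.

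CHIL, the non-catalytic relative of CHI, is measured by 250794_at (AT5G05270, chromosome 5). In the silenced parent its signal was 105.7, 53.1, 71.9 and 62.6. In 15B it was 114.8, 104.7, 84.9 and 105.2. Replicate 1 of the silenced parent reached the level of 15B, and the other 3 lay below every array of 15B. The means of 73.3 ± 22.9 and 102 ± 12.6 (SD, n = 4) differed by 0.46 on the log2 scale (SE 0.16, 95% interval 0.11 to 0.82), with a limma adjusted p = 0.118. The call depends on that 1 array, since without replicate 1 of the silenced parent the difference was 0.63 and passed (limma adjusted p = 0.0114), while over all alternatives tried the adjusted p ran up to 0.275.

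F3H, the enzyme that makes dihydroflavonols, is measured by 252123_at (AT3G51240, chromosome 3). The silenced parent gave 115.9, 83.2, 96.7 and 130.7. The arrays of 15B gave 175.9, 149.6, 131.1 and 107.3. Of the arrays of 15B, 3 lay above every silenced parent array, the closest of them only just, and replicate 4 of 15B lay among the silenced parent arrays. The means were 107 ± 20.9 and 141 ± 29.0 (SD, n = 4), with a log2 difference of 0.37 (SE 0.15, 95% interval 0.04 to 0.70, limma adjusted p = 0.185).

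TT7, the P450 of the B ring, is measured by 250558_at (AT5G07990, chromosome 5). The silenced parent gave signals of 44.2, 43.4, 43.1 and 53.6, and 15B of 76.1, 62.2, 55.8 and 55.9. Besides CHS, TT7 was the member whose groups did not overlap, which makes 2 of the 6, and 5.58% of all tested probe sets had every array of 15B above every array of the silenced parent. The gap was narrow and was set by replicate 4 of the silenced parent, the array with the highest scanner background. The means of 46.1 ± 5.04 and 62.5 ± 9.55 (SD, n = 4) differed by 0.37 on the log2 scale (SE 0.12, 95% interval 0.11 to 0.63), and the limma adjusted p = 0.0906 did not pass.

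FLS1, at the entry of the flavonol branch, is measured by 250533_at (AT5G08640, chromosome 5). In the silenced parent its signal was 123.4, 78.7, 109.5 and 138.2, and in 15B 114.9, 98.3, 91.5 and 87.2. It was the member with the lower mean in 15B, although the silenced parent's range contained that of 15B. Means were 112 ± 25.4 and 98.0 ± 12.2 (SD, n = 4), and the log2 difference was -0.16 (95% interval -0.48 to 0.16, limma adjusted p = 0.568).

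**Figure D2:**
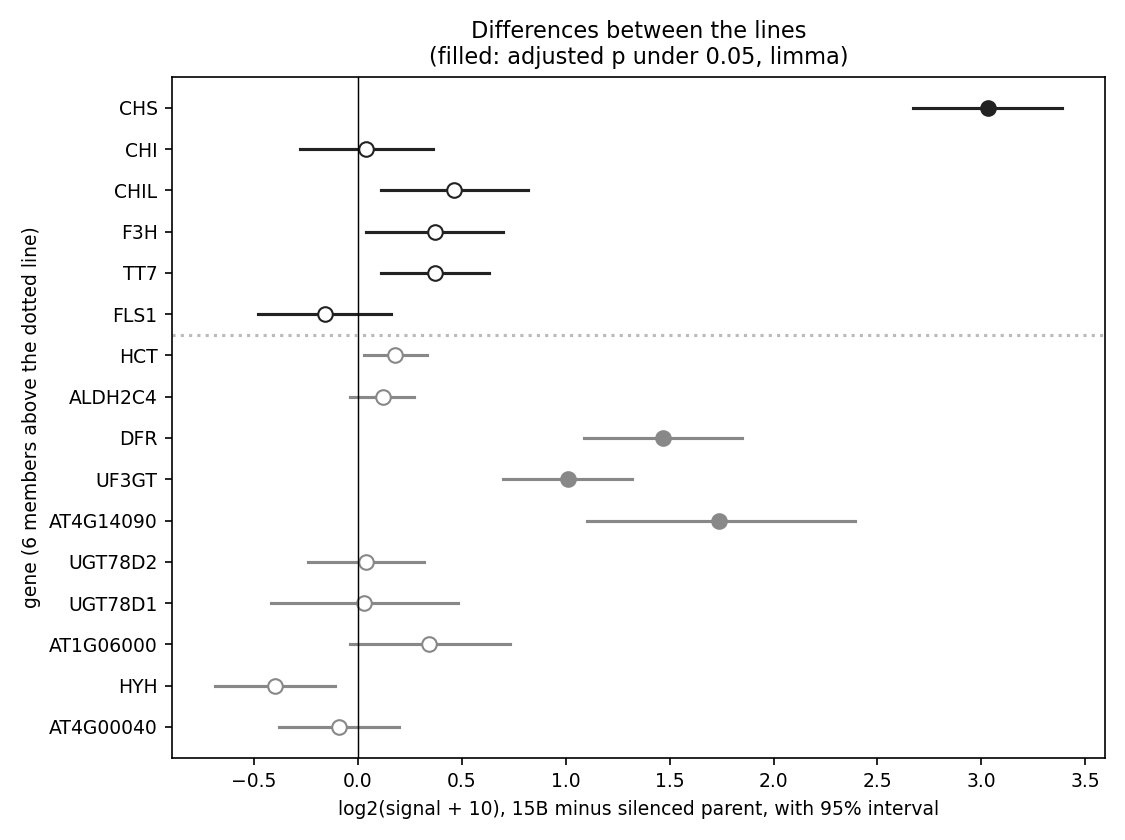
Difference of log2(signal + 10) between 15B and the silenced parent for the 6 members (black, above the dotted line) and for the other tested pathway genes that the annotation names (grey), with 95% intervals. Filled points passed at an adjusted p under 0.05. CHS stands at 3.03 and the other 5 members between -0.16 and 0.46, while DFR, UF3GT and AT4G14090 lie between 1.01 and 1.74.

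Whether CHS changed by another amount than the rest of the early pathway was tested within arrays, which reduces the influence of a whole array's scaling, though not fully on a scale with a pseudocount. For each array the log2 signal of CHS was subtracted from that of another member, and the groups were compared with an exact permutation test over the 8 arrays (two-sided, 70 arrangements, smallest possible p 0.0286). All 5 members fell relative to CHS. The shift was -3.19 for FLS1, -2.99 for CHI, -2.66 for F3H, -2.66 for TT7 and -2.57 for CHIL, each with an exact p = 0.0286, also after adjustment over the 5. In none of these 5 contrasts did the groups overlap. All 5 share the CHS signal, whose groups lie far apart, while the other members differed by -0.16 to 0.46. The smallest possible p thus followed from the CHS difference, which the 5 contrasts restate, and they are not 5 separate results. The spread of these log2 differences between arrays was smallest for FLS1 in the silenced parent (SD 0.09) and for TT7 in 15B (SD 0.11), and largest for CHIL in the silenced parent (0.35) and CHI in 15B (0.24).

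Among the 5 other members the same contrast was made for all 10 pairs, a set chosen after seeing the data. In 5 pairs the groups did not overlap, and each had an exact permutation p = 0.0286, the smallest the design allows. Its adjusted permutation p over the 10 was 0.0571 each time, and 0 of 10 passed. With 5 pairs at the smallest p the adjusted value could not be lower, so not passing decides nothing here. How often groups separate in other pairs of genes was not examined, and the count of 5 is a description. Of these 5 pairs, 3 put FLS1 lower in 15B relative to another gene. FLS1 shifted by -0.53 relative to F3H, its predecessor in the flavonol branch, by -0.53 relative to TT7 and by -0.63 relative to CHIL. The other 2 put F3H and TT7 higher relative to CHI, both by 0.33. Between F3H and TT7 the shift was 0.00 (exact permutation p = 1.00).

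**Figure D3:**
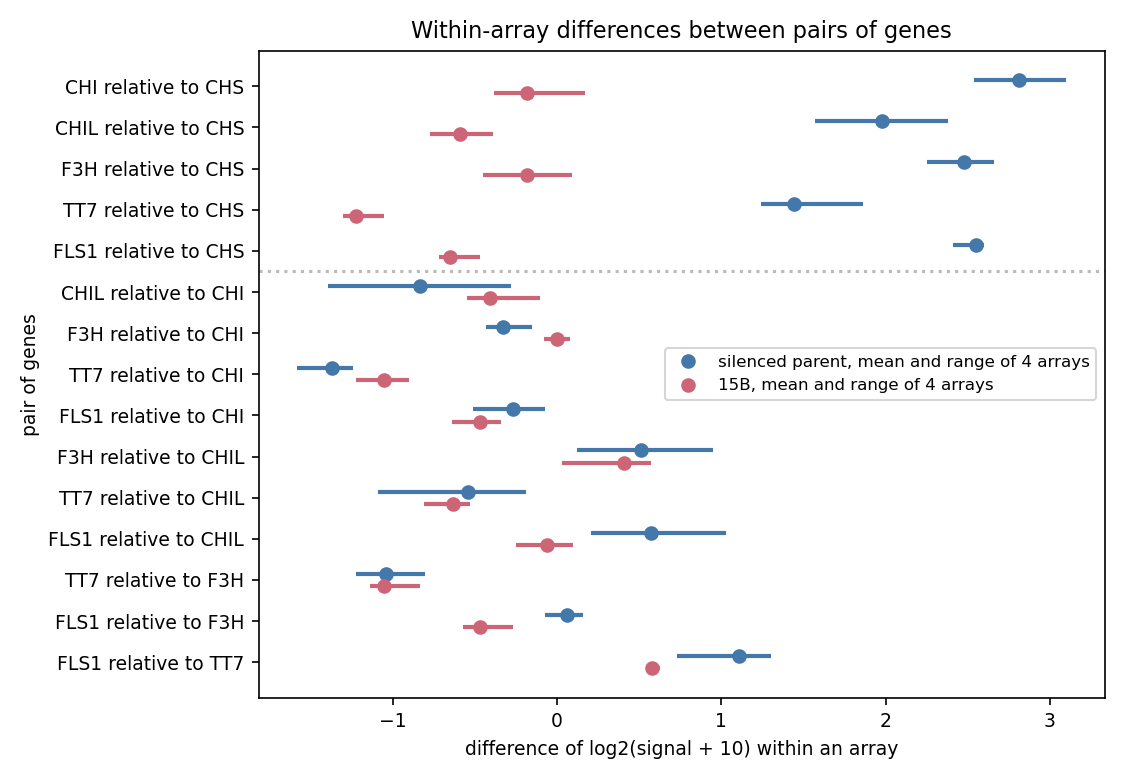
Difference of log2(signal + 10) between 2 genes of the same array, as the mean (point) and the range (line) of 4 arrays, for the silenced parent (blue) and 15B (red). Only the shift between the colours carries information, since levels of different probe sets are on different scales. Pairs with CHS, above the dotted line, shift by -3.19 to -2.57, and those without it by -0.63 to 0.42.

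Several members were high or low on the same arrays. Replicate 1 of 15B had the highest signal of its group for all 6 members. Replicate 2 of the silenced parent had the lowest for 5 of the 6 (not TT7), and replicate 4 the highest for 5 of the 6 (not CHIL). As a description over 8 arrays, deviations from the group means on the log2 scale correlated between members with a median Pearson r of 0.70 over 15 pairs (0.12 to 0.92), while the median r of a member with all other tested probe sets was 0.02 to 0.06. Positive and negative r cancel in that median, so it does not show how uncommon high r values are. By r with CHS, the members ranked from 49 (FLS1) to 2215 (CHIL) of 13821 tested probe sets. The closest pairs were CHS with FLS1 (0.92), CHI with F3H (0.91), F3H with FLS1 (0.90) and CHI with TT7 (0.90). CHIL was the loosest, at 0.12 to 0.54. The points share the arrays, so that anything particular to 1 array enters every r. The r values with CHS also include its silenced parent signals, which may not be above background.

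Of the silenced parent arrays, replicate 4 had a scanner background of 198, against 77.6 to 101 on the other 7 arrays. Without it the median r of the 15 pairs was 0.66, and that of the 5 pairs with CHIL went from 0.40 to 0.63. The CHS difference without this array was 3.11, and CHS was again the 1 member past the threshold. The ratio of 3' to 5' signal of actin controls, higher where RNA is more degraded, had a mean of 6.61 ± 1.43 on the silenced parent's arrays and of 5.23 ± 0.955 on those of 15B (SD, n = 4), and for ubiquitin of 3.50 ± 0.347 and 3.07 ± 0.378. For GAPDH the means were 1.93 ± 0.331 and 1.72 ± 0.227. A second set of controls for the same genes lay closer for actin, at 2.86 ± 0.259 and 2.76 ± 0.441. Its means were 1.26 and 1.19 for GAPDH and 2.53 and 2.32 for ubiquitin. Some of these ratios were lowest or highest in the replicates in which the members were high or low, and others were not. Replicate 1 of 15B, highest for all 6, had the lowest actin, GAPDH and ubiquitin ratios of its group (4.26, 1.41 and 2.60). In the second set of controls, its actin and ubiquitin ratios were again the lowest (2.23 and 2.12). Its GAPDH ratio there was the highest of its group (1.27). Replicate 4 of the silenced parent, highest for 5 of the 6, had its group's lowest ratios in the first set (4.79, 1.59 and 3.07). The same held in the second set (2.58, 1.14 and 2.15). Replicate 2 of the silenced parent, lowest for 5 of the 6, had the highest actin ratio (8.28) and the highest GAPDH ratio of the first set. Its ubiquitin ratio (3.50) was below that of replicate 3 (3.92), and none of its ratios in the second set was the highest. The part of RNA quality in these results was not tested.

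**Figure D4:**
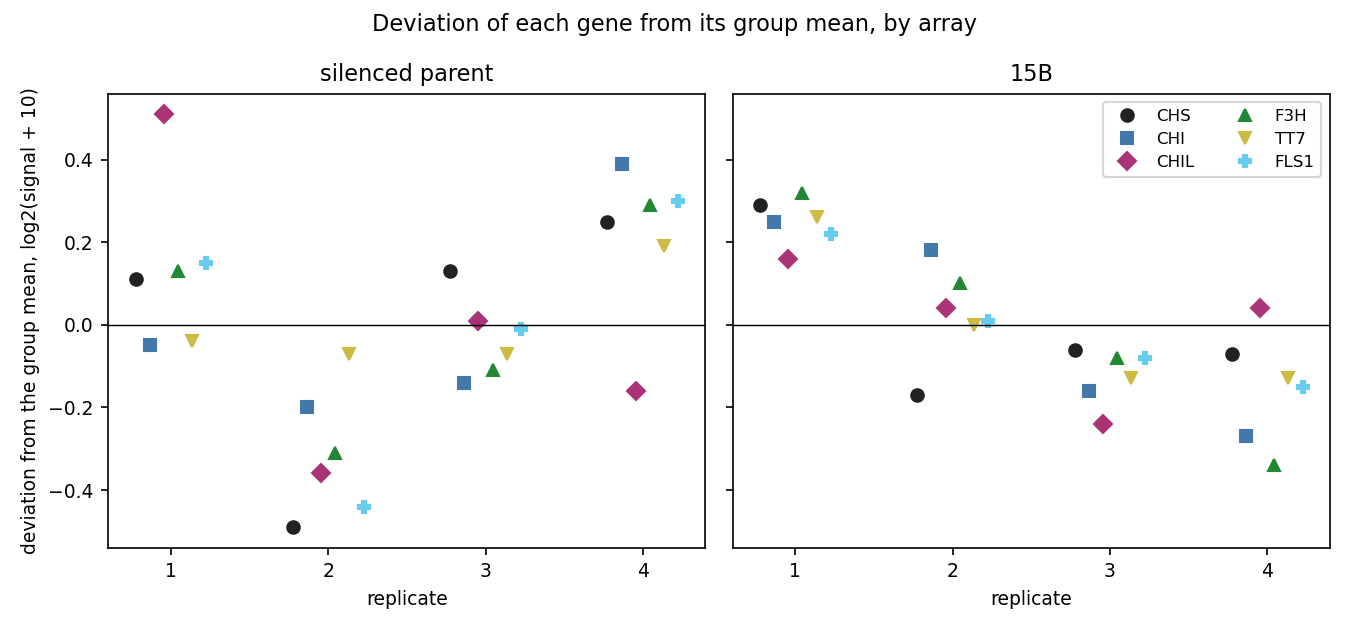
Deviation of log2(signal + 10) of each member from its group mean, by replicate, for the silenced parent (left) and 15B (right). In replicate 1 of 15B all 6 genes lie above 0 (0.16 to 0.32), and in replicate 2 of the silenced parent all lie below it (-0.49 to -0.07).

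By these deviations FLS1 ranked 49 of 13821 tested probe sets in likeness to CHS, F3H 676, TT7 1489, CHI 1776 and CHIL 2215. The 6 named genes outside the members whose deviations were most like those of CHS over the 8 arrays were AT1G60160 (r = 0.99), AT1G74680 (0.97), CHR17, AT1G36310 and AT4G29680 (0.96 each) and AT5G35560 (0.95). This measure leaves out the difference between the lines. The largest CHS deviation was in replicate 2 of the silenced parent (-0.49), at a signal of 4.7. Whether CHS was above background there is not known, so these ranks and r values may reflect variation near the floor. AT1G60160 was lower in 15B, with 84.0, 65.8, 72.0 and 70.5 against 120.1, 92.3, 125.1 and 126.6 in the silenced parent (log2 difference -0.60, SE 0.11, limma adjusted p = 0.00771). The other 5 lay between -0.07 and 0.09 and did not pass.

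Other genes of the pathway were looked up from 6 lists of 67 loci, of which the platform annotation names 14. Of the 10 that could be tested, 3 rose in 15B, 0 fell and 7 did not pass. Over all tested probe sets 3.13% were called higher and 3.57% lower. The 3 belong to the late anthocyanin list, in which 3 members were tested. AT4G14090 reached the filter through its level in 15B (19.8 ± 11.3 against 90.4 ± 45.9, SD, n = 4), so the count of 3 is a description. DFR, the reductase that competes with FLS1 for dihydroflavonols, went from 66.3, 48.7, 41.0 and 82.9 in the silenced parent to 220.4, 177.3, 172.7 and 148.8 in 15B (log2 difference 1.47, SE 0.17, limma adjusted p = 1.82e-04). UF3GT and AT4G14090, both anthocyanin glycosyltransferases, rose by 1.01 (SE 0.14, limma adjusted p = 8.40e-04) and 1.74 (SE 0.30, limma adjusted p = 0.00341). The other 2 named genes of that list were below the filter and were not tested. BAN, a reductase of seed coat tannin synthesis, was at 2.65 ± 0.695 and 2.12 ± 0.737 (SD, n = 4). AT5MAT, an anthocyanin malonyltransferase, had 11.2, 16.4, 11.5 and 26.6 in the silenced parent and 35.6, 43.2, 27.8 and 25.8 in 15B, so its groups overlapped.

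DFR was also set against the 2 members that make and share its substrate. DFR was picked for this because it had risen, so the values are a description with no test. Within arrays its log2 signal was 1.1 higher in 15B relative to F3H and 1.63 higher relative to FLS1, and in neither contrast did the groups overlap.

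On the list of flavonol decoration, 0 of 3 tested genes passed. UGT78D2, which glucosylates both flavonols and anthocyanidins and so also serves the anthocyanin branch, was at 0.04. UGT78D1, a flavonol rhamnosyltransferase, was at 0.03 and AT1G06000, which adds rhamnose to flavonols, at 0.34 (95% interval -0.04 to 0.73). From the neighbouring lignin and hydroxycinnamate branch, HCT and ALDH2C4 were at 0.18 and 0.12 without passing. The HCT groups did not overlap (551.3 to 608.3 in the silenced parent against 628.0 to 674.3 in 15B). Every array of 15B lay above every silenced parent array for 5.58% of all tested probe sets. HYH, a bZIP factor of light responses and the 1 tested flavonoid regulator, was at -0.40 (95% interval -0.69 to -0.11, limma adjusted p = 0.0972). Its groups did not overlap either (40.1 to 53.4 in the silenced parent against 25.5 to 37.5 in 15B). AT4G00040, which resembles CHS in sequence, was at -0.09, with 44.8, 31.2, 39.4 and 46.1 in the silenced parent and 32.3, 42.1, 38.5 and 35.1 in 15B. The general phenylpropanoid genes upstream of CHS (PAL, C4H and 4CL) are not named in the annotation and were not analysed here.

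The label "total tissue" was checked against leaf and root markers. The leaf gene LHCB4.1, for a light-harvesting protein, was at 4265 ± 465 in the silenced parent and at 4068 ± 280 in line 15B (SD, n = 4). The root hair expansins EXPA18 and EXPA7 had means of 39.2 to 49.2 in the 2 groups. None of the 6 tested markers passed by limma (0 of 6). HRGP1, measured by a probe set whose probes several sequences share, came closest, with a log2 difference of 0.35. Its groups did not overlap, with 15B the higher, as for 5.58% of all tested probe sets. Its limma adjusted p was 0.0531, and it passed in 5 of 18 alternatives (0.0289 to 0.139 over all). It was the 1 marker with an unadjusted p under 0.05. AT1G12080, another gene of the root list, had a log2 difference of -0.26 and GH9C1 of 0.07. In whole-plant RNA, fewer cells that express a gene and less transcript per cell cannot be told apart.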

How the data were processed

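RNA of 8 samples was hybridised to 8 ATH1 arrays. The authors deposited linear intensity values, 1 per probe set and array. The 2%-trimmed mean of each array is 100.0, so the deposited intensities had been scaled to a common level, which leaves only changes relative to the average probe set. How probes were summarised is not given in the sources used here. All columns were mapped to a sample.

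The 64 control probe sets were left out. Values were transformed as log2(value + 10), and probe sets with a mean of at least 30 over the 8 arrays were tested (13822, with 8924 below). The lines were set against each other by limma (version 3.58.1, R version 4.3.3) with lmFit and a trended eBayes. Its p-values are two-sided and were adjusted after Benjamini and Hochberg over all tested probe sets, with a threshold of 0.05. Adjusted p means this value unless a permutation test is named. The number of arrays limits the precision. Nothing in the labels beyond "biological replicates" says how the 4 samples of a group were separated, so p-values measure the spread between these samples.

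The platform annotation of 2016 names CHIL and none of the other 5 probe sets, whose names come from the rule that chose them. As a check, the nearest probe set numbers with a named gene lay on the stated chromosome for 6 of 6, at most 38 genes away in the RefSeq order of TAIR10.1. The stated locus lay between those of its neighbours for 1 of 6 (TT7). The check thus places the probe sets near the stated loci and does not identify their genes. Members, gene lists and tests were chosen with earlier results of these data known. Named genes are all members, every listed locus measured by a probe set naming 1 gene, and the 6 named genes most like CHS across arrays. Of the listed loci 4 named ones were below the filter and had no test.

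No 2 arrays shared more than 0.969% of their values. The fit was tested on simulated arrays of 15B and the silenced parent (13822 probe sets). Their noise was normal and drawn separately for each probe set around its real mean, with no effect shared by a whole array. The counts below thus need not hold for the real arrays. There 30 of 50 planted log2 changes of 0.5 were recovered, 46 of 50 of 1 and all 50 of 2 and of 4, with 11 false calls. Same-numbered arrays of the groups had residual correlations of 0.254, -0.011, 0.047 and 0.055, so the numbers were not taken to pair samples. Alternatives were other normalizations, pseudocounts, filters and variance models, array weights, a replicate block and leaving out each array.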

Additional observations from a re-analysis of the deposited data

Results flagged for a closer look

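Of 64 sets of 4 values examined, 6 held an array that stood apart from the other 3 of its group. Chance does this in about 1 in 20. The sets share arrays and include the genes picked for likeness to CHS, so the count cannot be read against that rate. Among the members this was TT7, at 53.6 in replicate 4 of the silenced parent against 43.1 to 44.2 in the others. Without that array the TT7 difference was 0.43 and did not pass (limma adjusted p = 0.0636).

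Among the other genes, AT4G14090 was at 159.0 in replicate 1 of 15B against 64.7 to 72.9. HYH was at 25.5 in replicate 2 of 15B against 37.0 to 37.5. The root marker GH9C1 was at 33.9 in replicate 2 of the silenced parent against 41.4 to 42.7, and CHR17 in the same array at 52.4 against 69.3 to 72.7. AT1G74680 was at 117.3 in replicate 1 of 15B against 86.0 to 90.8. CHR17 and AT1G74680 had been picked for deviations like those of CHS, which was itself lowest or highest of its group in these arrays.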

How the results depend on the processing

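CHS stayed past the threshold in all 18 alternatives, at 2.21 to 3.83 across settings and 2.87 to 3.11 with each array left out (adjusted p at most 2.58e-06). Under the replicate block it was 3.03, and blocking changed no call of a member. The count of members called higher was 1 in every setting and 1 to 2 with each array left out, and 0 were called lower. The second was CHIL, whose difference ran from 0.34 to 0.63. CHI changed sign (-0.04 to 0.17 with each array left out), so its direction is not settled. So did UGT78D1 (-0.01 with array weights, -0.18 to 0.18), UGT78D2 (-0.08 to 0.10) and EXPA18 (-0.01 to 0.13), none of them called. HRGP1 passed with median centring (0.36), the filter of 60 (0.35), robust eBayes (0.35), array weights (0.34) and without replicate 4 of 15B (0.42). TT7 was below the filter of 60 and was not run there. The 5 contrasts with CHS kept their sign in their 10 alternatives, with shifts from -4.00 (FLS1, pseudocount of 1) to -1.83 (CHIL, pseudocount of 30). Their p was the smallest the design allows each time and says nothing about stability. Among the pairs chosen later, TT7 relative to F3H turned (0.03 with a pseudocount of 1, -0.08 to 0.08 with arrays left out), as did F3H (-0.22 to 0.06) and TT7 (-0.28 to 0.02) relative to CHIL with arrays left out. The causes were not tested.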
